A study of Homo sapiens with 6 samples.

Results

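The genes described here are 40 receptor tyrosine kinases, without the Eph family and ERBB3, chosen by symbol from the platform annotation. No rule on measured values picked them, but earlier results of these data were known at that choice. Of the 40 receptors, 39 were measured among the 17687 genes compared, each by 1 probe set, and ERBB2 was not analysed here. The cells were A375, a melanoma line of human origin. RNA was taken 3 days after they received a control small interfering RNA (siCon, 3 arrays) or an siRNA against ERK3, the atypical MAP kinase encoded by MAPK6 (siERK3, 3 arrays). All 6 samples had received an siRNA with a transfection reagent and came from cells grown in medium with fetal bovine serum. The siRNA against ERK3 was a predesigned commercial one, and the control was the same maker's negative control. No untransfected cells were analysed here. The labels do not say whether replicates were separate cultures, so p-values here reflect spread among arrays that could be purely technical. The comparison asks whether the transcripts of growth factor receptors differ after ERK3 knockdown.

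Receptor tyrosine kinases are membrane proteins that bind an extracellular ligand, usually dimerise, and phosphorylate each other's tyrosines, to which adaptor proteins dock. The adaptors pass the signal to RAS and the classical ERK cascade, to PI3 kinase and to phospholipase C. In melanoma, KIT is tied to the melanocyte lineage, while AXL, EGFR and PDGFRB are known for high levels in dedifferentiated cells and in cells that resist BRAF inhibitors.

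The values are the deposited log2 signals, 1 per gene and array. A value counts as above background when it exceeds the 95th percentile of the 612 negative control probe sets of the same array, which lay between 7.32 and 7.56. On the 6 arrays, 45.6% to 47.6% of genes were above it. MAPK6 lay at 13.45, 13.55 and 13.62 in siCon and at 10.54, 10.32 and 10.67 in siERK3, a log2 difference of -3.03 (SE 0.14; limma adjusted p = 0.000133). Of the 6 arrays, siCon 2 (-26.5) and siERK3 3 (-15.2) had negative scores on the second principal component, where the other 4 lay from 4.35 to 21.7. The melanocyte regulators SOX10 and MITF were above background on all 6 arrays, and the pigmentation markers MLANA, PMEL, TYR and TYRP1 on none. Among other cells' markers, the pan-leukocyte gene PTPRC, the endothelial gene PECAM1 and the epithelial genes EPCAM and KRT5 were above background on no array. LYZ and CD68 of the leukocyte list, EGFL7 of the endothelial list and LUM and COL1A2 of the fibroblast list were above it on all.

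Promoter sequences are shown for 4 receptors. PDGFRB was the member with the smallest p, and MET the member above background on every array with the smallest p. AXL and IGF1R were above background throughout and were picked as far apart in their number of CpG dinucleotides. Each sequence is the 250 bases before the gene's first listed start, 5′ to 3′ on the gene's strand, from RefSeq on GRCh38.p14. Each GC box (GGGCGG on either strand, the letters bound by SP1) is in capitals. The windows are chr5:150155846-150156095 on the minus strand for PDGFRB and, on the plus strand, chr7:116671946-116672195 for MET, chr19:41218973-41219222 for AXL and chr15:98648289-98648538 for IGF1R.
PDGFRB: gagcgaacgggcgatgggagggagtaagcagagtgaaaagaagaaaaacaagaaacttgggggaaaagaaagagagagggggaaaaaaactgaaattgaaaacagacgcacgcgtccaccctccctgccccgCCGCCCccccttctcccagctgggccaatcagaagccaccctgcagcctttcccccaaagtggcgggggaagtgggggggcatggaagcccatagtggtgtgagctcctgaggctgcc
MET: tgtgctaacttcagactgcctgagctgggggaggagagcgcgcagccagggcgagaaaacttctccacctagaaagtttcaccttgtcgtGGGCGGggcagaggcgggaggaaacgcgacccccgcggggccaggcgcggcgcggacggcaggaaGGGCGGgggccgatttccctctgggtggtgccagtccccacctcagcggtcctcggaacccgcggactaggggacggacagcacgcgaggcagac
AXL: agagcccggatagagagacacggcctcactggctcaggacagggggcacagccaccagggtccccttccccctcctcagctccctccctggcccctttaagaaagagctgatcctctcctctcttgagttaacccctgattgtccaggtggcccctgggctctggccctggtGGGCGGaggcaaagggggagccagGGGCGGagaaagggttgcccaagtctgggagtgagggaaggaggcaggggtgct
IGF1R: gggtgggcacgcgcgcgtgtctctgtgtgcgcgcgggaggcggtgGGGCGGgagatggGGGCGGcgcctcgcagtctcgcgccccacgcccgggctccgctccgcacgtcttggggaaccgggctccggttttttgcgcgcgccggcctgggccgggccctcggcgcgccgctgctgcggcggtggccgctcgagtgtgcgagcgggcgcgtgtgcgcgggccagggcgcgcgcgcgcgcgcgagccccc

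The PDGFRB window held 1 GC box and 9 CpG dinucleotides, and the MET window 2 GC boxes and 24 CpG. The AXL and IGF1R windows, picked for their unlike CpG numbers, held 2 GC boxes each, with 4 CpG in AXL and 48 in IGF1R. None of the 4 windows held an AP-1 site (TGANTCA), an E-box (CACGTG) or a TATA box (TATAAA), on either strand. The table of promoters held a window for 36 of the 39 measured receptors. A GC box stood in 26 of the 36 (72.2%). It stood in 57.0% of the 14250 compared genes with a window and in 42.3% of all 27305 genes with one. An AP-1 site stood in 3 (8.33%), against 5.07% and 6.60%, an E-box in 1 (2.78%), against 7.70% and 6.49%, and a TATA box in 3 (8.33%), against 8.99% and 11.1%. The GC content had a median of 69.2% (range 40% to 81.2%) in the 11 receptors above background on all 6 arrays and of 70.8% (range 40% to 86.8%) in the 23 with a window that were above it on none. Both ranges overlapped, and the median over the compared genes was 62.4%. The motif matches describe these letters in these windows and were not tested against the expression values.

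Of the 39 receptors, 11 were above background on all 6 arrays (28.2%, against 43.7% of all genes), 2 on some arrays and 26 on none. The 11 were IGF1R, MET, AXL, TYRO3, DDR1, DDR2, ROR1, RYK, FLT1, FGFR4 and LMTK2. PTK7 was above it on 5 arrays and PDGFRB on 3. Against the stricter 99th percentile of the negative controls, 5 receptors stayed above it on all arrays, IGF1R, MET, AXL, DDR2 and RYK.

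**Figure D1:**
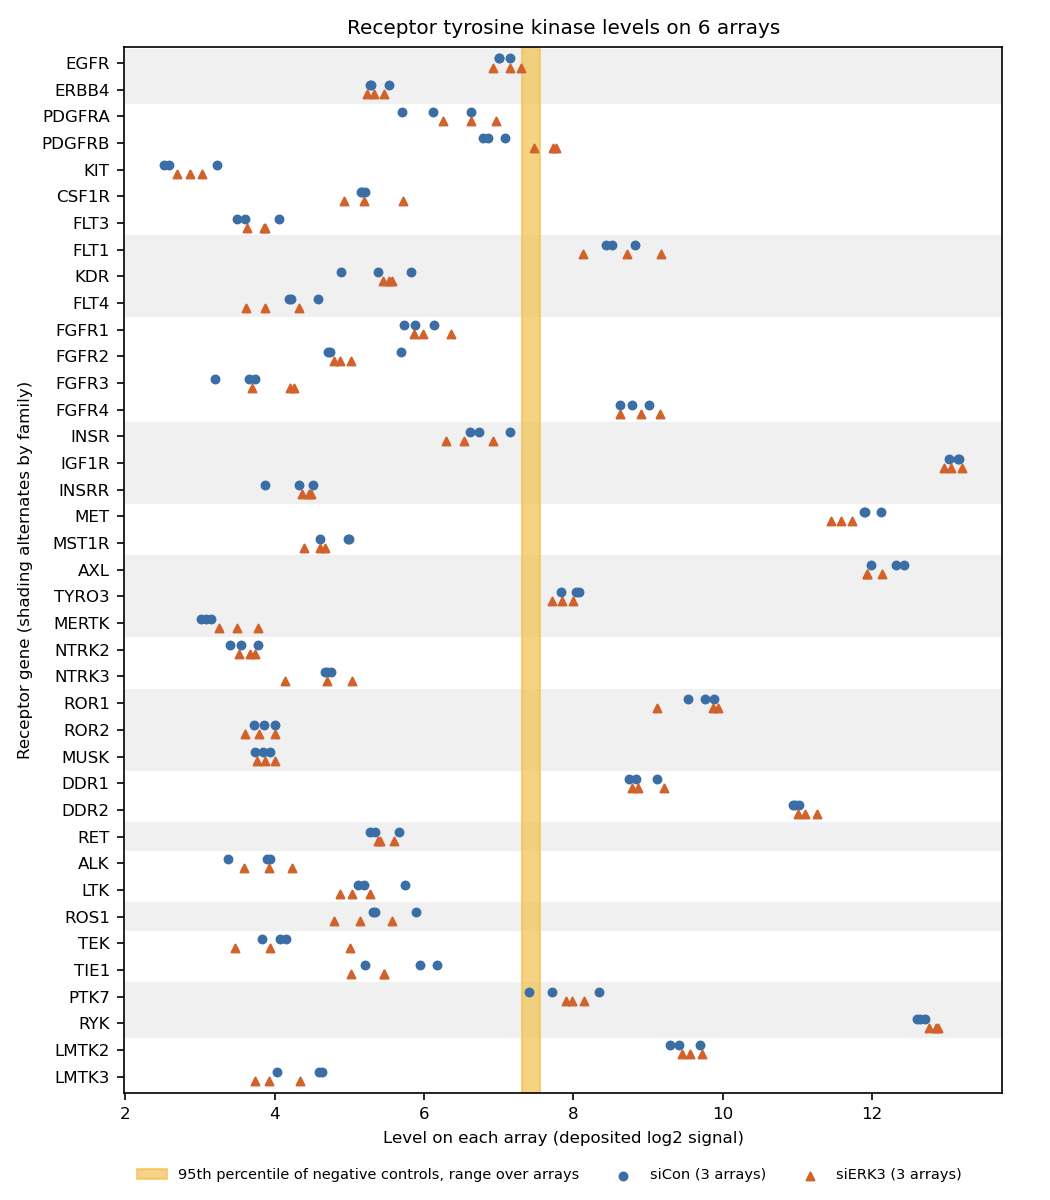
Deposited log2 signal (horizontal axis) of the 39 measured receptors (vertical axis) on each of 3 siCon arrays (circles) and 3 siERK3 arrays (triangles), with the range of the negative controls' 95th percentile over the arrays as a yellow band. The 26 receptors above background on no array lie left of the band or at its edge, and PDGFRB crosses it between the groups.

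In limma, with Benjamini-Hochberg adjustment over all genes, 0 of the 39 receptors passed the threshold of 0.05, where 0.956% of all genes did (169 of 17687, with 0.447% higher and 0.509% lower). Before adjustment, at p under 0.05, there were 3 higher and 1 lower, 10.3% of the receptors against 13.5% of all genes (6.98% higher and 6.50% lower). The groups did not overlap for 4 receptors, PDGFRB, MERTK and RYK higher and MET lower. That was again 10.3%, against 19.8% of all genes (10.1% higher and 9.70% lower). The median log2 difference over the receptors was 0.07, with 23 differences above 0 and 16 below, and the median over all genes was -0.00. With 1 array left out, the median over the receptors lay between -0.0080 and 0.039, and it was below 0 without siCon 1 or siCon 3. Both shares of receptors lay under those of all genes, but each rests on 4 receptors. Detection differed too, since 26 of the 39 receptors were above background on no array. Over all genes, 8.84% of those above background on no array had an unadjusted p under 0.05 in limma. The share was 17.7% of those above it on all arrays. Among receptors, the counts were 2 of 26 and 1 of 11. Whether receptors differ from genes of like detection was not tested.

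How tightly the arrays bound a difference varied between receptors. Among the 11 above background on all arrays, all 95% intervals lay inside a 2-fold change in either direction, and 7 lay inside a 1.5-fold change. The 7 were IGF1R, RYK, DDR1, DDR2, TYRO3, FGFR4 and LMTK2. The intervals of MET, AXL, ROR1 and FLT1 reached beyond 1.5-fold. The median standard error over the receptors was 0.18 on the log2 scale, against 0.16 over all genes.

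**Figure D2:**
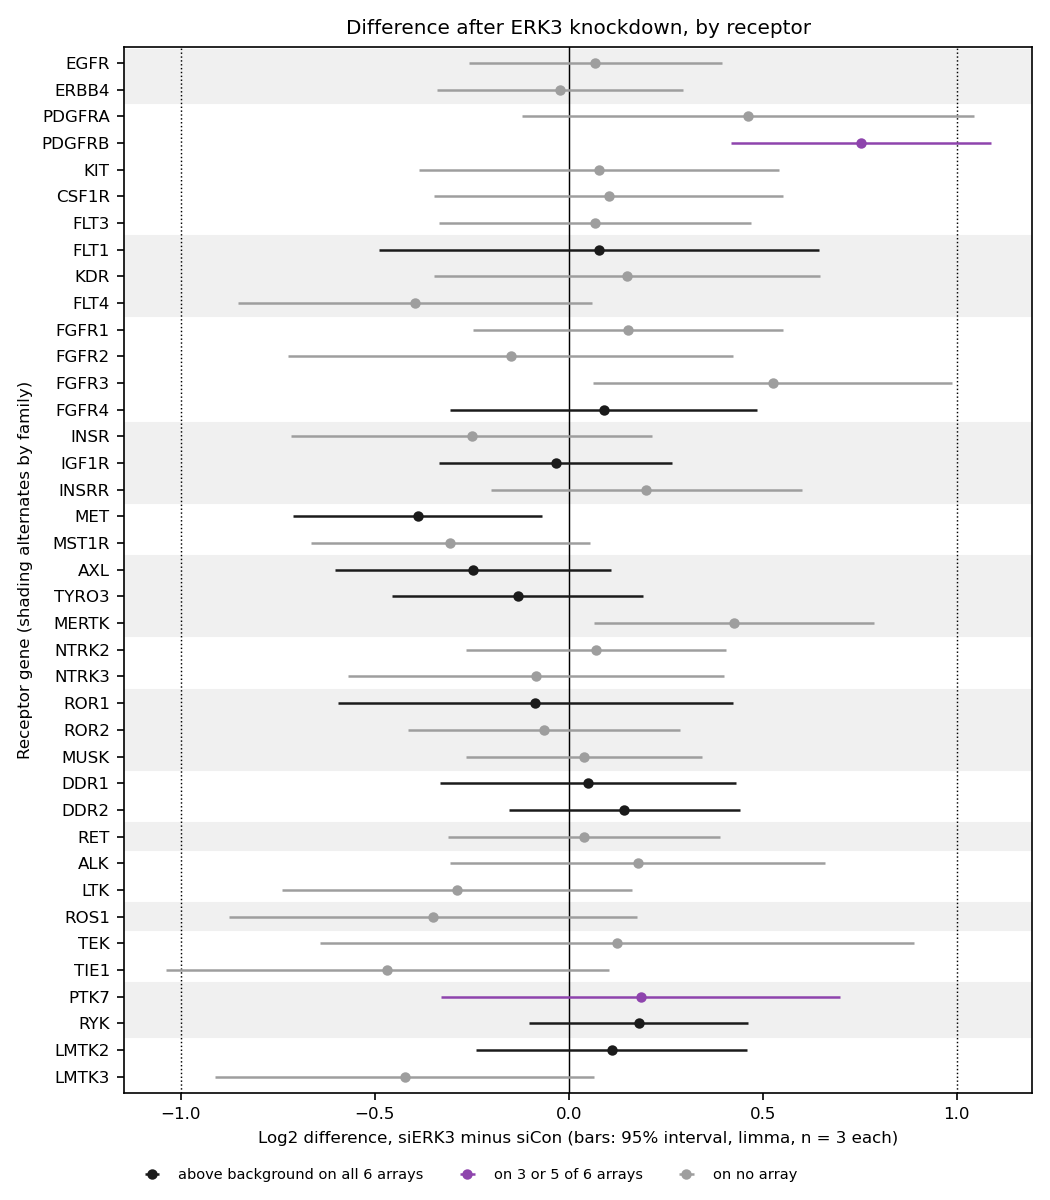
Log2 difference of siERK3 minus siCon (horizontal axis, 3 arrays each) for the 39 measured receptors (vertical axis), with 95% intervals from limma as bars and dotted lines at a 2-fold change. The intervals of the 11 receptors above background on all arrays (black) stay inside the dotted lines, and that of MET, from -0.71 to -0.07, is the one of the 11 that leaves out 0. Differences of receptors above background on no array (grey) are between signals at background.

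PDGFRB, the beta receptor for platelet-derived growth factor and a marker of pericytes and fibroblasts, came nearest to the threshold. It lay at 7.08, 6.79 and 6.86 in siCon and at 7.48, 7.77 and 7.73 in siERK3. All 3 siERK3 values lay above all 3 siCon values. All 3 siCon values were also below background and all 3 siERK3 values above it. The fitted log2 difference of the signals was 0.75 (SE 0.15), with an adjusted p of 0.0631 in limma. Because siCon was below background, the fold is given against the background level. The siERK3 mean was 1.18-fold above the mean background level of the siCon arrays. That ratio has no interval, so it is not a minimum, and it depends on the percentile that defines background. Against the 90th percentile of the negative controls, PDGFRB was above background on all arrays. In such bulk RNA, a change in the number of cells with a transcript and a change in its amount per cell cannot be told apart.

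The PDGFRB call depended on the setting. In limma it passed when genes below the 30th percentile by mean were left out (adjusted p = 0.0321), among genes above background on at least 3 arrays (0.00862), with a mean-variance trend and robust variance (0.0263) and with array weights (0.0476). PDGFRB entered the second of these filters only through its 3 siERK3 arrays, so that call carries the filter's own selection. It did not pass with any 1 array left out (0.103 to 0.202), nor with siCon 2 and siERK3 3 left out together (0.295). The exact two-sided permutation test gave p = 0.1 for PDGFRB, the smallest that 3 against 3 arrays allow.

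**Figure D3:**
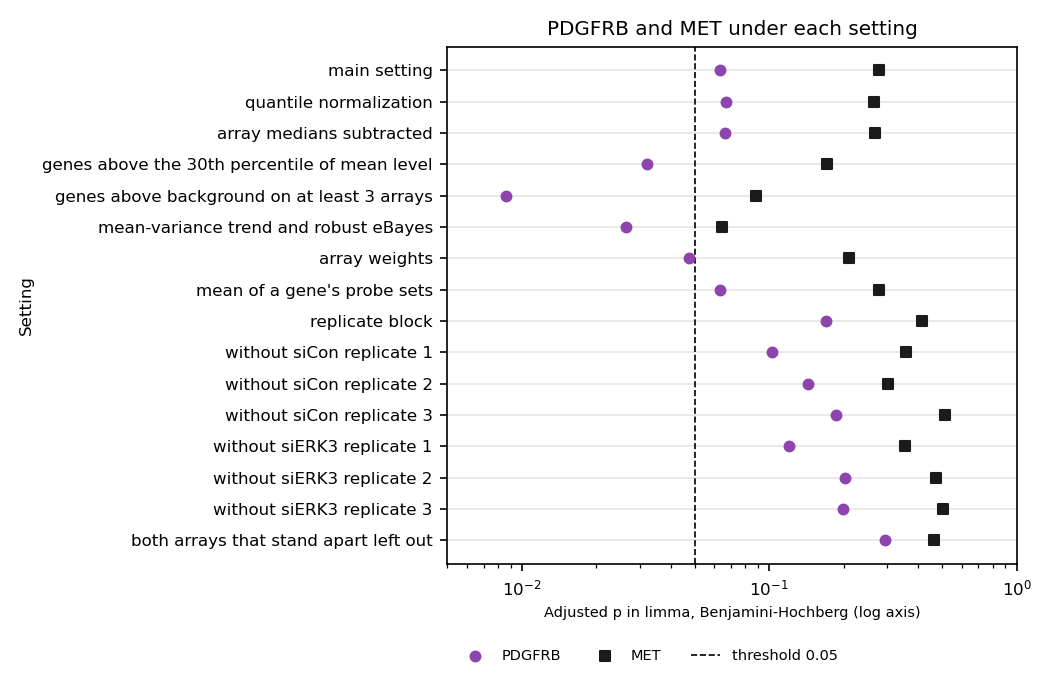
Adjusted p in limma (horizontal axis, log scale) for PDGFRB (circles) and MET (squares) under the main setting and each alternative (vertical axis), with the threshold of 0.05 dashed. PDGFRB lies between 0.00862 and 0.295 and passes under 4 settings, while MET lies right of the threshold under every setting shown. The value of 0.00862 is from genes above background on at least 3 arrays, a filter that PDGFRB entered only through its 3 siERK3 arrays.

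PDGFRB is also a stromal gene, so fibroblast markers are given beside it. Of 6 measured, 2 were above background on all arrays, LUM and COL1A2, and COL1A1, DCN, PDPN and FAP were on none. The mean log2 level of the 6 lay between 6.25 and 6.39 in siCon and between 6.21 and 6.49 in siERK3. LUM, a matrix proteoglycan, fell by 0.83 (limma adjusted p = 0.0441). FAP went from 4.43 to 5.40, below background in both groups and without overlap (limma unadjusted p = 0.00591, adjusted p = 0.154). Of the 6 markers, 3 had differences above 0 and 3 below. Their part in the PDGFRB value was not tested.

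The other receptors of the PDGFRB family were all below background on all 6 arrays. PDGFRA, the alpha receptor, ranged from 5.70 to 6.63 in siCon and from 6.25 to 6.96 in siERK3, and the groups overlapped. KIT, the stem cell factor receptor on which melanocytes depend, lay at 3.23, 2.59 and 2.52 in siCon and at 2.86, 2.69 and 3.02 in siERK3. CSF1R, the receptor for macrophage colony-stimulating factor, and FLT3, a receptor of blood progenitors, averaged 5.18 and 3.72 in siCon and 5.28 and 3.79 in siERK3. CSF1R is the neighbour of PDGFRB on its chromosome, with 0 protein-coding genes between them in RefSeq. Its groups overlapped (limma adjusted p = 0.877). The mean log2 level of 7 leukocyte markers lay between 6.74 and 6.92 in siCon and between 6.50 and 6.68 in siERK3. LYZ went from a mean of 9.40 to 8.55 and CD68 from 12.51 to 12.05, while the log2 differences of the other 5, of which 4 were above background on no array and TYROBP on 1, lay between -0.17 and 0.15. Their part in the CSF1R values was not tested. PDGFRA, KIT and KDR are likewise consecutive protein-coding genes, and none of them was above background.

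MET, the receptor for hepatocyte growth factor, was the receptor with the lowest p among those above background on all arrays. It lay at 11.91, 11.89 and 12.12 in siCon and at 11.73, 11.58 and 11.45 in siERK3. The 3 siERK3 values were all below the 3 siCon values. The log2 difference was -0.39 (SE 0.14), or 1.31-fold lower, with an unadjusted p of 0.0229 and an adjusted p of 0.278 in limma. The 95% interval of the ratio ran from 0.611 to 0.954 of the control signal. MET did not pass under any alternative run (adjusted p 0.0644 to 0.512). Its relative MST1R, the receptor for macrophage-stimulating protein, was below background and averaged 4.86 in siCon and 4.56 in siERK3.

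The TAM receptors AXL, TYRO3 and MERTK bind GAS6, and TYRO3 and MERTK also bind protein S. TAM receptors clear dying cells in other tissues. AXL lay at 11.99, 12.43 and 12.32 in siCon and at 12.13, 11.94 and 11.93 in siERK3, and siERK3 1 overlapped the control range. Its log2 difference was -0.25 (SE 0.16; limma adjusted p = 0.565). TYRO3 lay at 8.08, 7.83 and 8.04 in siCon and at 7.85, 8.0 and 7.71 in siERK3, with a difference of -0.13 (SE 0.14; limma adjusted p = 0.762). The groups of TYRO3 overlapped. MERTK was below background on all 6 arrays.

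IGF1R, the receptor for insulin-like growth factors, was the 1 receptor among the 11 whose interval lay inside a 1.3-fold change. It lay at 13.03, 13.15 and 13.17 in siCon and at 13.21, 13.06 and 12.97 in siERK3. The groups overlapped. The difference was -0.03 (SE 0.13; limma adjusted p = 0.947), and the 95% interval of the ratio ran from 0.794 to 1.2. INSR, the insulin receptor, ranged from 6.61 to 7.15 in siCon and from 6.29 to 6.92 in siERK3, below background throughout. INSRR, the insulin receptor-related receptor, was below background as well, at means of 4.24 and 4.44.

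EGFR and ERBB4, the ERBB receptors described here, were both below background. EGFR, the epidermal growth factor receptor, lay at 7.15, 7.01 and 7.01 in siCon and at 7.30, 6.93 and 7.15 in siERK3, just under the background level. The groups overlapped (limma adjusted p = 0.890). ERBB4, a neuregulin receptor, averaged 5.37 and 5.34.

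Among receptors for fibroblast growth factors, FGFR4 was the member above background. It lay at 8.79, 9.01 and 8.63 in siCon and at 9.16, 8.91 and 8.63 in siERK3, with a difference of 0.09 (SE 0.17; limma adjusted p = 0.878). The ranges of the groups overlapped almost fully. FGFR1 lay at 5.73, 5.88 and 6.14 in siCon and at 5.98, 6.36 and 5.87 in siERK3. FGFR2 and FGFR3 were also below background on every array.

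FLT1, which encodes VEGF receptor 1, was above background on all arrays, while the VEGF receptors KDR and FLT4 were on none. FLT1 lay at 8.52, 8.44 and 8.83 in siCon and at 9.17, 8.72 and 8.13 in siERK3. The siERK3 arrays lay both above and below the controls, with an SD of 0.52 against 0.21 in siCon. The difference was 0.08 (SE 0.25; limma adjusted p = 0.931). FLT1, KDR, TEK and TIE1 are endothelial genes too. Of 7 endothelial markers, EGFL7 was above background on all arrays and the other 6, PECAM1, CDH5, VWF, CLDN5, ESAM and ROBO4, were on none. The mean log2 level of the 7 lay between 5.64 and 5.72 in siCon and between 5.48 and 5.76 in siERK3, and their part in the FLT1 values was not tested. The angiopoietin receptor TEK and its relative TIE1 were below background.

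The discoidin domain receptors, which bind collagen, were both above background on all arrays. DDR2 lay at 11.03, 10.95 and 10.97 in siCon and at 11.26, 11.01 and 11.11 in siERK3, with a difference of 0.14 (SE 0.13; limma adjusted p = 0.707). Its lowest siERK3 value lay within the control range. DDR1 lay at 8.74, 9.12 and 8.84 in siCon and at 8.87, 8.78 and 9.21 in siERK3. The DDR1 groups overlapped, with a difference of 0.05 (SE 0.17; limma adjusted p = 0.935).

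Receptors of WNT ligands and their relatives included 2 genes above background on all arrays, RYK and ROR1. RYK, a pseudokinase that binds WNT proteins, lay at 12.71, 12.61 and 12.65 in siCon and at 12.86, 12.76 and 12.89 in siERK3. The groups did not overlap, yet the difference was 0.18 (SE 0.12; limma adjusted p = 0.603), with an interval of the ratio from 0.931 to 1.38. ROR1, a WNT5A receptor, lay at 9.54, 9.88 and 9.77 in siCon and at 9.87, 9.12 and 9.94 in siERK3. Only siERK3 2 lay below the controls, and without it the log2 difference went from -0.09 (SE 0.22; limma adjusted p = 0.916) to 0.18. PTK7, a pseudokinase co-receptor of WNT signalling, lay at 7.41, 8.34 and 7.72 in siCon and at 7.98, 7.90 and 8.15 in siERK3. Its siCon 1 value was below background, and the groups overlapped (difference 0.19, SE 0.23; limma adjusted p = 0.791). ROR2 and MUSK, the receptor that organises the neuromuscular junction, were below background.

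LMTK2, a kinase of endosomal membranes, lay at 9.70, 9.30 and 9.42 in siCon and at 9.57, 9.73 and 9.45 in siERK3. The groups overlapped, with a difference of 0.11 (SE 0.15; limma adjusted p = 0.816). Its relative LMTK3 was below background, as were the neurotrophin receptors NTRK2 and NTRK3, the GDNF family receptor RET, the kinases ALK and LTK, and ROS1. A lower level of any receptor at background could not be seen on these arrays.

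Ligands, co-receptors, adaptors and negative regulators of these receptors were counted as 4 lists with 124 genes, 112 of them measured. The lists were chosen with earlier results of these data known. Adjusted over all genes in limma, 0 of the 112 were past the threshold, against 0.956% of all genes. At an unadjusted p under 0.05 there were 15 higher and 10 lower, 22.3% against 13.5% of all genes (17.7% of those above background on all arrays). The median log2 difference over the 112 was 0.01. By list, the share at that level was 14.3% of 49 ligands, 33.3% of 12 co-receptors, 24.1% of 29 adaptors and effectors and 31.8% of 22 negative regulators. Genes of the last list were more often above background, 81.8% on all arrays against 18.4% of the ligands.

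Among ligands, 9 of 49 were above background on all arrays. TGFA, a ligand of EGFR, lay at 13.16, 13.24 and 13.00 in siCon and at 12.67, 12.67 and 12.56 in siERK3. The 3 siERK3 values were all lower, with a difference of -0.50 (SE 0.13; limma adjusted p = 0.134), while EGFR itself was below background. The other 3 ligands with the smallest p were below background on every array, the EGFR ligand EPGN, the PDGF receptor ligand PDGFA and FGF18. Ligands of the receptors that A375 cells expressed were looked up after their values were seen. HGF for MET, GAS6 for AXL and IGF1 and IGF2 for IGF1R were below background on every array. PROS1, which encodes protein S, the ligand of TYRO3 and MERTK, was above background on all arrays at 7.85 in siCon and 7.97 in siERK3. WNT5A averaged 10.02 in siCon and 10.20 in siERK3 (limma adjusted p = 0.672), and VEGFA, a FLT1 ligand, averaged 11.39 and 11.30 (limma adjusted p = 0.853). VEGFB, likewise a FLT1 ligand, averaged 9.17 in siCon and 9.29 in siERK3 (limma adjusted p = 0.760). FGF2, a fibroblast growth factor, averaged 8.87 and 9.03 (limma adjusted p = 0.742). VEGFB and FGF2 were above background on all arrays. PGF, placental growth factor and also a FLT1 ligand, lay at 7.17, 7.27 and 6.72 in siCon and at 7.28, 7.87 and 7.54 in siERK3, above background on 2 siERK3 arrays and on no siCon array (limma unadjusted p = 0.0331, adjusted p = 0.320). FGF9, a fibroblast growth factor, lay at 7.56, 7.81 and 7.87 in siCon and at 7.25, 7.44 and 7.46 in siERK3 (limma unadjusted p = 0.0314, adjusted p = 0.314). The groups of PGF and of FGF9 did not overlap. PDGFB and PDGFD, the ligands of PDGFRB, were below background.

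SDC4 and NRP2 had the smallest p among co-receptors. SDC4, a heparan sulfate proteoglycan that presents fibroblast growth factors, lay at 12.85, 12.90 and 12.71 in siCon and at 12.08, 12.24 and 12.20 in siERK3. The groups were apart, with a difference of -0.64 (SE 0.13; limma adjusted p = 0.0680). NRP2, a neuropilin that binds VEGFC and semaphorins, lay at 12.62, 12.04 and 12.45 in siCon and at 11.48, 11.83 and 11.55 in siERK3. Its siERK3 values were all lower as well, with a difference of -0.75 (SE 0.18; limma adjusted p = 0.110). NGFR, the low-affinity neurotrophin receptor, and LRP4, the agrin receptor that partners MUSK, were below background on all arrays.

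PIK3CB, the beta catalytic subunit of PI3 kinase, was the gene of the 4 lists nearest to the threshold. It lay at 11.48, 11.45 and 11.49 in siCon and at 10.87, 10.80 and 10.81 in siERK3. The groups lay far apart relative to their SDs of 0.02 and 0.04. The difference was -0.65 (SE 0.12), or 1.57-fold lower, with an adjusted p of 0.0520 in limma. In limma, PIK3CB passed under 6 of the 15 alternatives run, among them quantile normalization (adjusted p = 0.0487) and the mean-variance trend (0.00140). It did not pass under the other 9, among them each fit with 1 array left out (0.105 to 0.181), the replicate block (0.158) and siCon 2 and siERK3 3 left out together (0.234). PIK3R1, which encodes the regulatory subunit that brings PI3 kinase to receptors, lay at 8.23, 7.56 and 8.16 in siCon and at 8.85, 8.44 and 8.69 in siERK3, with no overlap (difference 0.68, SE 0.20; limma adjusted p = 0.194). The adaptor SHC4 lay at 7.87, 7.87 and 7.71 in siCon and at 8.08, 8.45 and 8.74 in siERK3 (limma adjusted p = 0.186). NCK2, an adaptor to the actin cytoskeleton, lay at 7.41, 7.32 and 7.53 in siCon and at 7.78, 8.19 and 7.93 in siERK3 (limma adjusted p = 0.148). The groups of both adaptors were apart, and 1 of 3 siCon arrays was above background for NCK2.

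The 4 negative regulators with the smallest p were all higher in siERK3. Their groups did not overlap, which follows largely from picking them by p. In the whole list, the groups did not overlap for 8 of 22 genes (36.4%), 4 higher and 4 lower. That share was 19.8% of all genes and 29.5% of genes above background on all arrays. SOCS4, a SOCS-box protein that acts on EGFR, lay at 9.26, 9.20 and 9.28 in siCon and at 9.95, 9.74 and 9.96 in siERK3, a difference of 0.63 (SE 0.13; limma adjusted p = 0.0715). Its relative SOCS5 lay at 9.94, 9.90 and 9.98 in siCon and at 10.47, 10.65 and 10.52 in siERK3, a difference of 0.61 (SE 0.13; limma adjusted p = 0.0725). UBASH3B and PTPRF are tyrosine phosphatases, the first of the STS type and the second the receptor phosphatase LAR. UBASH3B lay at 10.25, 10.27 and 10.45 in siCon and at 10.98, 10.92 and 10.78 in siERK3, a difference of 0.57 (SE 0.13; limma adjusted p = 0.102). PTPRF lay at 9.62, 9.23 and 9.70 in siCon and at 10.06, 10.18 and 10.16 in siERK3, a difference of 0.62 (SE 0.16; limma adjusted p = 0.126). These 4 did not set the direction of the list, whose 22 measured genes had 12 differences above 0, 10 below and a median of 0.01. CBL, the ubiquitin ligase that marks active receptors for degradation, had a difference of 0.01 (SE 0.13; limma adjusted p = 0.987).

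**Figure D4:**
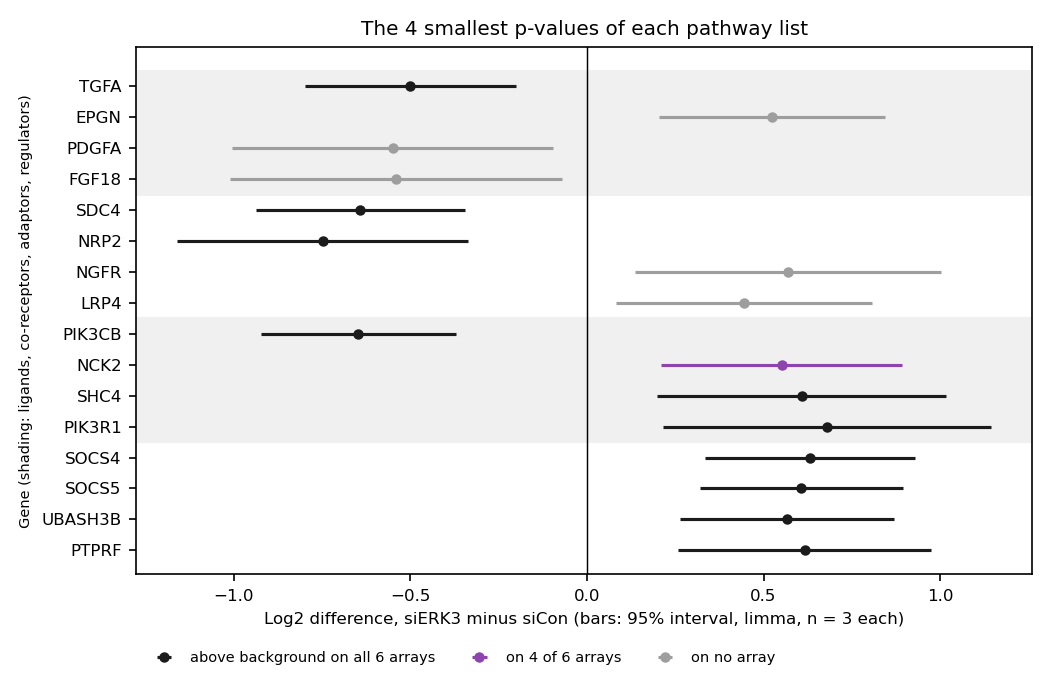
Log2 difference of siERK3 minus siCon (horizontal axis, 3 arrays each) with 95% intervals from limma for the 4 genes with the smallest p in each of the 4 pathway lists (vertical axis). The 4 negative regulators lie between 0.57 and 0.63, and SDC4, NRP2, PIK3CB and TGFA lie between -0.75 and -0.50.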

How the data were processed

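RNA from A375 cells was profiled on 6 Affymetrix Clariom S Pico human arrays, per the labels. The table the authors deposited holds log2 signals, 1 for each probe set on each array, from 1.84 to 19.4. No label names the scale, which was inferred from that range. The zero point of the scale is unknown, with software and normalization not given in the sources used here. Of 24351 probe sets, 17709 had 1 gene symbol, and the brightest per gene by mean was kept (20 genes had several), which left 17687 genes. Levels of different genes are not compared, since probes differ in response.

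siERK3 was set against siCon with lmFit and eBayes (limma 3.58.1, R 4.3.3), without covariates or a filter, adjusted by Benjamini-Hochberg over all genes at 0.05. Fold changes and 95% intervals are from that fit. Where a group was below background on all arrays, a fold is against the mean background level of its arrays or not given. A log2 difference is then one between signals. The script was tested on simulated data whose planted differences were all larger than any receptor's here. Detection of differences as small as those of the receptors was not tested. The number of arrays limits the precision.

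The members and lists were chosen with earlier results of these data known. Values on each array were given for members past the threshold, those at an unadjusted p under 0.05 and above background on some array, those above it on all arrays, and EGFR, PDGFRB, KIT, IGF1R, MET, AXL and FGFR1. Of each pathway list, the 4 genes with the smallest p were named, with values on each array where above background. PTK7, PDGFRA and others were named besides. Same-numbered replicates did not deviate together (r = 0.05, -0.12 and -0.04), so numbers were not taken as pairs. Leaving out siCon 2 and siERK3 3, called here the arrays that stand apart, was chosen after seeing the data. They are called so for their negative scores on the second principal component, where siCon 1 had the highest score, 21.7.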

Additional observations from a re-analysis of the deposited data

How the results depend on the processing

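MAPK6 stayed past the threshold under every alternative run, with log2 differences of -3.11 to -2.94 with 1 array left out. The number of genes past limma's threshold, 169, was 365 after leaving out genes below the 30th percentile by mean, 615 among genes above background on at least 3 arrays, 722 with a mean-variance trend and robust eBayes, 33 with the replicate block, 7 with both arrays that stand apart left out, and 23 to 60 with 1 array left out. The number of receptors past it, 0, became 1 (PDGFRB) under the first 3 of these settings and with array weights. It was 0 in all 6 fits with 1 array left out. PDGFRB entered the fit among genes above background on at least 3 arrays only through its 3 siERK3 arrays. Its call there carries the filter's own selection. The number of pathway genes, 0, became 1 with quantile normalization, with array medians subtracted and with array weights, 5 and 10 under the filters and 10 with the trend, and was 0 with 1 array left out. Fewer genes enter the filtered fits. The cause of the other shifts was not tested.

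The replicate block changed no receptor's call, and with it PDGFRB had an adjusted p of 0.170. The median log2 difference over the receptors lay between -0.0080 and 0.039 with 1 array left out. Small differences, of which those of EGFR and KIT are between signals at background, changed sign with 1 array left out, where EGFR ranged from -0.017 to 0.17, KIT from -0.051 to 0.30, IGF1R from -0.10 to 0.021, FLT1 from -0.17 to 0.35, FGFR4 from -0.039 to 0.22, ROR1 from -0.23 to 0.18 and DDR1 from -0.079 to 0.16. KIT and IGF1R also did so with both arrays that stand apart left out, at -0.10 and 0.038. The number of receptors above background on all arrays, 11, was 14 against the 90th percentile of the negative controls and 5 against the 99th. EGFR, PDGFRB and PTK7 were the ones added at the 90th. Receptors at background level limit what these arrays can show.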

Other observations

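Some genes outside the rule for naming were picked after their values were seen. MERTK lay at 3.01, 3.15 and 3.08 in siCon and at 3.49, 3.26 and 3.77 in siERK3, and FGFR3 averaged 3.53 and 4.06. Both receptors had an unadjusted p under 0.05 in limma (0.0254 and 0.0303) although all 6 values of each lay below background. Among all genes above background on no array, 8.84% reached that level.

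SHC1, the adaptor that links receptors to GRB2, lay at 12.31, 12.30 and 12.30 in siCon and at 12.57, 12.65 and 12.71 in siERK3. The groups were apart by 0.34 on the log2 scale (SE 0.12; limma adjusted p = 0.276). GRB2 itself had a difference of -0.00 (SE 0.16). The receptor phosphatases PTPRG and PTPRK were lower in all 3 siERK3 arrays, with differences of -0.48 (SE 0.12; limma adjusted p = 0.131) and -0.37 (SE 0.14; limma adjusted p = 0.288), while PTPRF was higher. ERRFI1, a feedback inhibitor of EGFR, lay at 17.54, 17.41 and 17.59 in siCon and at 17.34, 17.30 and 17.33 in siERK3, with a difference of -0.19 (SE 0.13; limma adjusted p = 0.570).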
